A study of Mus musculus with 11 samples.

Results

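The genes described here drive or brake the passage of a cell through the G1 phase of its division cycle: the D-type cyclins Ccnd1, Ccnd2 and Ccnd3, their partner kinases Cdk4 and Cdk6, the CIP/KIP inhibitors Cdkn1a (p21), Cdkn1b (p27) and Cdkn1c (p57), and the INK4 inhibitors Cdkn2c (p18) and Cdkn2d (p19). They were found by symbol in a table of mouse RNA sequencing values, as 10 of 37991 listed genes. All 10 belonged to the 13342 genes that reached 1 CPM (CPM are reads scaled to a common library total) in at least 2 libraries and were tested. Cdk6 and Cdkn2d reached 1 CPM in NSC libraries only, so a difference from NSC was built into their passing that filter. The family was chosen by measured values, since Ccnd1 had one of the largest falls in CPM from the starting cells. Differences from the starting cells were fitted in the same model, but they are given as a description: p-values are not printed, and nothing is read from how many members were called. The fall of Ccnd1 from the starting cells does not involve differences among the later cultures, which are given with their tests. Members and gene lists were nevertheless chosen with earlier results of these data known.

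Primary neural stem cells came from the frontal cortex of C57BL/6J mouse embryos (E14.5) and were expanded in a proliferation medium; these day 0 cells form the group NSC (3 libraries). The other groups had spent 4 days in another medium on coated flasks. They are Astrocyte (DMEM with N-2 supplement at 1% and fetal bovine serum at 1%; 3 libraries), Neuron (Neurobasal with the B-27 supplement at 2%; 3 libraries) and Oligodendrocyte (as Neuron, with T3, a thyroid hormone, added at 30 ng/mL; 2 libraries). Group names stand for the medium, not for the cells present. No culture was kept in proliferation medium to day 4, so time and medium cannot be told apart in any difference from NSC. The series' design text calls the libraries biological replicates but does not tie them to animals or flasks, so a p-value measures only the spread between these libraries.

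In G1, extracellular growth signals raise D-type cyclins, which bind and activate CDK4 or CDK6. The active kinases phosphorylate the retinoblastoma protein, which then releases E2F factors to transcribe cyclin E, cyclin A and genes of DNA replication. INK4 proteins bind CDK4 and CDK6 and keep cyclin D away. CIP/KIP proteins bind assembled cyclin-CDK complexes, above all those of CDK2. In the embryonic cortex this balance governs how many progenitors divide again and how many leave the cycle.

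Listed genes accounted for 74.95% to 80.25% of the full CPM scale in a library, and transcripts of mitochondrial genes took 4.54% to 4.71% of the CPM in NSC and 6.13% to 8.91% at day 4. Defining markers were checked as summed CPM. Astrocyte markers summed to 1594 to 1662 in NSC, 14186 to 15683 in Astrocyte, 8989 to 9828 in Neuron and 3386 to 3819 in Oligodendrocyte. Gfap weighed most in the Astrocyte sum, with a mean of 7631.1 CPM there and 2646.7 in Neuron. Of the 8 astrocyte markers, only Gfap, Aqp4 and Gja1 were higher in Astrocyte than in Neuron (adjusted p under 0.05 in limma). The other 5 were lower. The sums for oligodendrocyte markers were 1850 to 1986 in NSC, 821 to 971 in Astrocyte, 3353 to 3708 in Neuron and 3128 to 3528 in Oligodendrocyte. Neuron markers summed to 13.16 to 15.02 in NSC, and their 143 to 226 in Neuron overlapped both the 152 to 206 of Astrocyte and the 136 to 146 of Oligodendrocyte. Most of the day 4 sums was Dcx, with means of 124.8, 147.7 and 86.62 CPM in Astrocyte, Neuron and Oligodendrocyte, and Map2 was not included. Of the 5 neuron markers tested, Rbfox3 and Syt1 were higher in Neuron than in Astrocyte and Tubb3 was lower (adjusted p under 0.05 in limma). Thus no day 4 culture held the markers of its name alone. Of the markers of other cell types, 5 of 6 for microglia, 4 of 5 for endothelium and 4 of 6 for mesenchyme and pericytes stayed under 1 CPM in every library. The mesenchyme and pericyte sum was 1.12 to 1.31 CPM in NSC and 8.34 to 43.74 CPM at day 4, nearly all of it Pdgfrb, with means of 41.92, 37.54 and 8.82 CPM in Astrocyte, Neuron and Oligodendrocyte. The part of cell makeup in the differences below was not tested.

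Against NSC, every D cyclin and both kinases had lower means in all 3 day 4 cultures, while the inhibitors divided by gene and by medium. The call used throughout is an adjusted p under 0.05. In Astrocyte, 1 member was called higher and 9 lower, where 48.0% of all tested genes were called higher and 35.6% lower (83.6% in either direction). In Neuron, 2 were called higher and 8 lower, against 43.5% and 39.6% of all genes (83.1% in either direction). In Oligodendrocyte, 1 was called higher and 7 lower, against 48.1% and 32.2% (80.2% in either direction). The members were chosen on these differences, and the lower calls include Cdk6 and Cdkn2d, which passed the filter through NSC alone, so nothing is read from these counts. The members' median difference on the log2(CPM + 1) scale was -1.05, -1.01 and -1.05 in Astrocyte, Neuron and Oligodendrocyte, beside 0.15, 0.06 and 0.19 for all tested genes. The members and the groups' common control, NSC, are the same in all 3 comparisons.

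**Figure D1:**
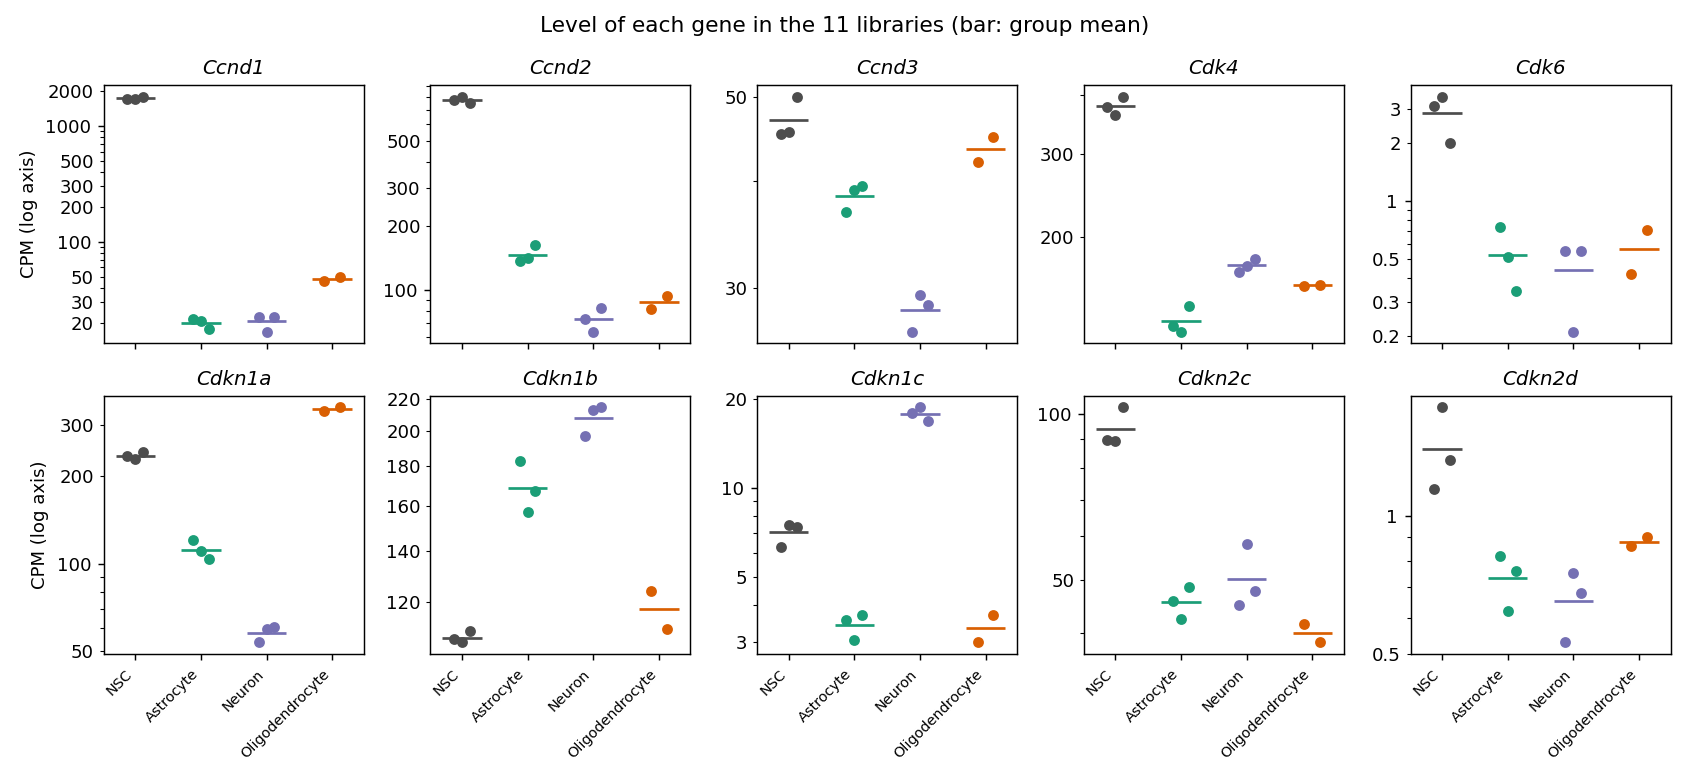
CPM (log axes, each gene with its own range) of the 10 genes in the 11 libraries, 1 point per library and a bar at each group mean. Ccnd1 drops from a mean of 1732.6 CPM in NSC to between 16.77 and 49.29 CPM at day 4, Cdkn1a is highest in Oligodendrocyte, and Cdkn1c is highest in Neuron.

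Ccnd1 encodes cyclin D1, the D cyclin most tightly tied to mitogen signalling (ENSMUSG00000070348; chromosome 7, 152115836 to 152125774 in mm9, minus strand). Its level was 1713.3, 1702.8 and 1781.8 CPM in the NSC libraries, 21.79, 20.69 and 17.79 in Astrocyte, 22.57, 16.77 and 22.46 in Neuron, and 45.73 and 49.29 in Oligodendrocyte. No day 4 library came near NSC, and both Oligodendrocyte libraries lay above all 6 libraries of the other day 4 cultures. The difference from NSC was -6.37 ± 0.102 (SE) on the log2(CPM + 1) scale in Astrocyte, -6.34 ± 0.102 in Neuron and -5.16 ± 0.114 in Oligodendrocyte. Counted from the largest fall, Ccnd1 was number 2 of 13342 genes in Astrocyte, number 1 in Neuron and number 7 in Oligodendrocyte. In CPM the NSC mean was 86.2, 84.1 and 36.5 times the means of these cultures.

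Among the day 4 cultures, Ccnd1 was higher in Oligodendrocyte than in Neuron by 1.18 ± 0.114 on the log2(CPM + 1) scale (limma, adjusted p = 9.96e-07). Over Astrocyte the margin was 1.21 ± 0.114 (adjusted p = 1.49e-06). Between Astrocyte and Neuron the difference was -0.03, with a 95% interval of -0.25 to 0.19 (limma, adjusted p = 0.833), and the libraries overlapped.

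Ccnd2, cyclin D2, is the D cyclin linked to continued division of cortical progenitors (ENSMUSG00000000184; chromosome 6, 127075797 to 127101066 in mm9, minus strand). It stood at 782.0, 806.2 and 751.7 CPM in NSC, 136.3, 141.1 and 161.9 in Astrocyte, 73.12, 63.77 and 82.42 in Neuron, and 81.30 and 93.72 in Oligodendrocyte. All day 4 libraries were below NSC, and the Astrocyte libraries stayed above the rest of day 4. The difference from NSC was -2.41 ± 0.093 (SE, log2 scale) in Astrocyte, -3.40 ± 0.093 in Neuron and -3.14 ± 0.104 in Oligodendrocyte, ranks 361, 192 and 154 from the largest fall. Ccnd2 was higher in Astrocyte than in Neuron by 1.00 ± 0.093 (limma, adjusted p = 8.21e-07) and lower in Oligodendrocyte than in Astrocyte by 0.74 on the log2 scale (a difference of -0.74 ± 0.104; adjusted p = 5.76e-05). Ccnd1 and Ccnd2 therefore ordered the day 4 media differently: the higher level was in Oligodendrocyte for the first and in Astrocyte for the second. The difference between Oligodendrocyte and Neuron was 0.26 ± 0.104 (limma, adjusted p = 0.0406) with overlapping libraries. It did not pass without Neuron replicate 1 (0.26), without Neuron replicate 2 (0.17) or without Oligodendrocyte replicate 2 (0.16), nor after scaling by median of ratios (0.12) or quantile normalization (0.10).

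Ccnd3, cyclin D3, moved little (ENSMUSG00000034165; chromosome 17, 47642000 to 47736632 in mm9, plus strand). It measured 45.37, 45.54 and 50.08 CPM in NSC, 36.72, 38.97 and 39.40 in Astrocyte, 26.67, 29.46 and 28.63 in Neuron, and 42.07 and 44.89 in Oligodendrocyte. The libraries of the 4 groups did not overlap, although Oligodendrocyte and NSC were nearly adjacent. Its difference from NSC was -0.29 ± 0.065 in Astrocyte, -0.71 ± 0.065 in Neuron and -0.11 ± 0.073 in Oligodendrocyte on the log2 scale; the last was not called. Neuron held the lowest level: Astrocyte was higher by 0.43 ± 0.065 (limma, adjusted p = 7.04e-05) and Oligodendrocyte by 0.60 ± 0.073 (adjusted p = 7.65e-06). Between Oligodendrocyte and Astrocyte the difference of 0.18 (95% interval 0.02 to 0.33) did not pass (adjusted p = 0.0575).

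Levels of different genes were compared only per kb of exon, counting every base in any annotated exon of a gene. This gave 4.71 kb for Ccnd1, 9.41 kb for Ccnd2 and 8.78 kb for Ccnd3. Transcripts in these cells may be shorter, by an amount that can differ between genes and was not tested. Shares, and which gene leads in a group, therefore depend on these lengths, and the SDs do not include that uncertainty. In NSC, Ccnd1 made up 80.6% ± 0.831 (SD, n = 3) of the summed CPM per kb of the 3 D cyclins, Ccnd2 18.2% and Ccnd3 1.17%. In Astrocyte, Ccnd2 led with 64.2% ± 2.9 (n = 3), and Ccnd1 and Ccnd3 held 17.7% and 18.1%. Ccnd2 also led in Neuron with 50.5% ± 1.46 (n = 3), ahead of Ccnd1 with 28.4% and Ccnd3 with 21.1%. In Oligodendrocyte, Ccnd1 held 41.5% ± 0.692 (n = 2), Ccnd2 38.2% and Ccnd3 20.4%. The summed D cyclin level was 456 ± 6.76 CPM per kb in NSC and 24.2 ± 1.13, 15.4 ± 1.56 and 24.3 ± 1.7 in Astrocyte, Neuron and Oligodendrocyte. By these lengths, a pool dominated by 1 cyclin in NSC was replaced by a much smaller, more even one. These shares are a description.

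**Figure D2:**
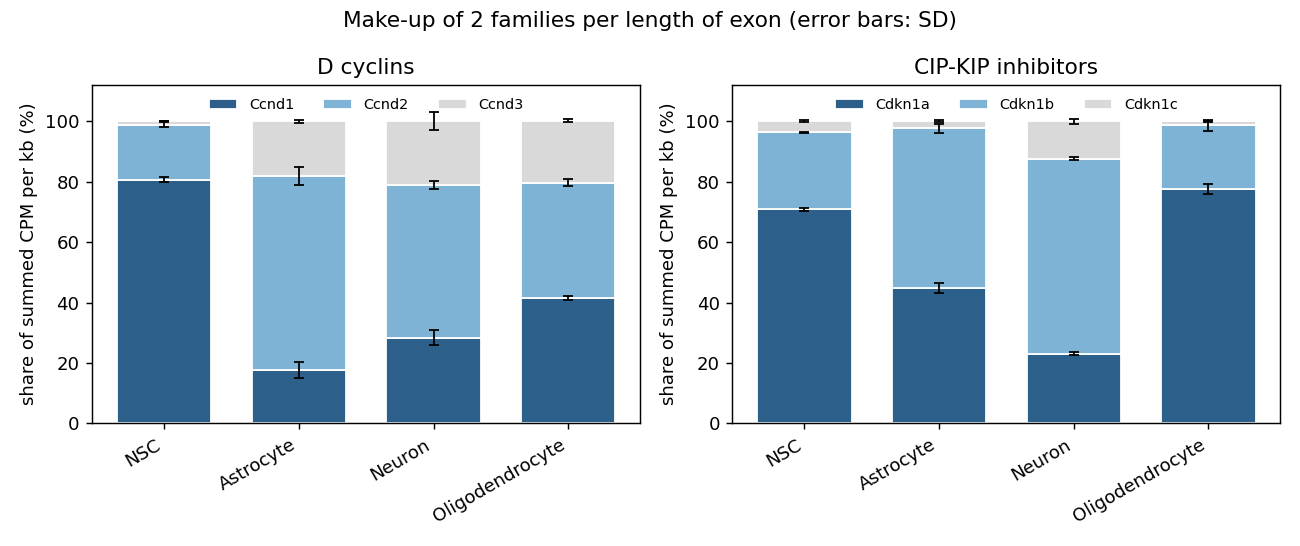
Share (%) of each gene in the summed CPM per kb of exon of its family, as the mean over the libraries of a group, with the SD of each gene's own share as an error bar at the top of its segment. Ccnd1 takes 80.6% of the D cyclin level in NSC and 17.7% to 41.5% at day 4; Cdkn1b is the largest CIP/KIP segment in Astrocyte and Neuron only.

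Cdk4 encodes the main kinase partner of the D cyclins (ENSMUSG00000006728; chromosome 10, 126500590 to 126504976 in mm9, plus strand). The upstream window of Cdk4 is shown because the CACGTG word, which MYC and related factors can bind, stands in it 4 times. This window holds bases 250 to 5 before the start of transcription as RefSeq places it (GRCm38.p6, chr10:127063285-127063530, plus strand), with the words in capitals.
Cdk4: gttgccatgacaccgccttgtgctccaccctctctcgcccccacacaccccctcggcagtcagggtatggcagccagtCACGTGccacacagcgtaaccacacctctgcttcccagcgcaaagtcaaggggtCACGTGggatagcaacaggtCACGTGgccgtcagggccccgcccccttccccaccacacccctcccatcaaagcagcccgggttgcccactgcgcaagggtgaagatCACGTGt
CACGTG reads the same on both strands, and 5.89% of 32851 RefSeq windows of this length held it at least once. The only AGGTCA word of the window, part of the binding sites of nuclear receptors, found on either strand in 13.82% of windows, overlaps a CACGTG. Such a match describes letters and not a bound site.

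The level of Cdk4 was 377.1, 362.8 and 396.9 CPM in NSC, 129.3, 125.9 and 143.0 in Astrocyte, 168.6, 173.7 and 179.7 in Neuron, and 157.5 and 158.3 in Oligodendrocyte. No 2 groups overlapped, and Astrocyte was lowest. Against NSC the log2 difference was -1.51 ± 0.062, -1.12 ± 0.062 and -1.26 ± 0.069 in Astrocyte, Neuron and Oligodendrocyte. Cdk4 was lower in Astrocyte than in Neuron (-0.39 ± 0.062; limma, adjusted p = 0.000105) and Oligodendrocyte stood above Astrocyte (0.25 ± 0.069; adjusted p = 0.00815). The second did not pass without Oligodendrocyte replicate 2, at 0.25, or after quantile normalization, at 0.17. Between Oligodendrocyte and Neuron the difference was -0.14 (95% interval -0.29 to 0.01; limma, adjusted p = 0.0921), and it passed after scaling by median of ratios (-0.28) or quantile normalization (-0.25). Myc, itself in the list of upstream genes, measured 98.46 ± 6.04 CPM in NSC, 27.63 ± 4.05 in Astrocyte, 58.46 ± 5.05 in Neuron and 21.29 ± 1.29 in Oligodendrocyte (SD, n = 3, 3, 3 and 2). Both genes had their highest day 4 mean in Neuron, while Myc was lowest in Oligodendrocyte and Cdk4 in Astrocyte.

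Cdk6, the other D cyclin kinase, was barely detected (ENSMUSG00000040274; chromosome 5, 3343893 to 3523218 in mm9, plus strand). Its CPM was 3.09, 3.47 and 1.99 in NSC, 0.73, 0.51 and 0.34 in Astrocyte, 0.55, 0.21 and 0.55 in Neuron, and 0.42 and 0.71 in Oligodendrocyte. The day 4 groups overlapped one another, and none of their differences passed. Their 95% intervals on the log2 scale were -0.25 to 0.43 for Astrocyte against Neuron, -0.25 to 0.51 for Oligodendrocyte against Neuron and -0.34 to 0.42 for Oligodendrocyte against Astrocyte. Per kb, Cdk6 made up at most 0.222% of the summed level of both kinases in any library, and Cdk4 the rest.

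Cdkn1a encodes p21, an inhibitor of cyclin-CDK complexes and a classical target of the tumour suppressor p53 (ENSMUSG00000023067; chromosome 17, 29227924 to 29237667 in mm9, plus strand). Its window is shown because the p53 decamer, the repeated unit of a p53 binding site, stands in it. RefSeq gives 2 starts, of which the upstream one is used here; the window of the other lies within annotated exons, is not printed, and holds no p53 decamer. The bases 250 to 5 before this start (GRCm38.p6, chr17:29090729-29090974, plus strand) carry 2 p53 decamers, in capitals.
Cdkn1a: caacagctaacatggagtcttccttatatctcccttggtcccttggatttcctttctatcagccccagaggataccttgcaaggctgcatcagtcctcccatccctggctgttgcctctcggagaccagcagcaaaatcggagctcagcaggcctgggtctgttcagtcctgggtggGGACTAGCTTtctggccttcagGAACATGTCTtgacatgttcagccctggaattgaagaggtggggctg
A p53 decamer, searched on both strands, was present in 6.99% of all windows. The capitals mark a match of letters only, and whether p53 acted on the gene was not tested.

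Cdkn1a measured 233.5, 228.8 and 241.5 CPM in NSC, 120.6, 110.8 and 103.4 in Astrocyte, 53.57, 59.70 and 60.33 in Neuron, and 333.8 and 344.1 in Oligodendrocyte. The 4 groups were fully separate, and Oligodendrocyte alone lay above NSC. Its log2 difference from NSC was -1.07 ± 0.067 in Astrocyte, -2.00 ± 0.067 in Neuron and 0.53 ± 0.075 in Oligodendrocyte. The media of Oligodendrocyte and Neuron differ in the added T3 alone, per the labels, and Cdkn1a was higher with it by 2.53 ± 0.075 on the log2 scale (limma, adjusted p = 2.45e-11), a mean of 338.9 against 57.87 CPM. Oligodendrocyte exceeded Astrocyte by 1.60 ± 0.075 (limma, adjusted p = 2.73e-09), and Astrocyte exceeded Neuron by 0.93 ± 0.067 (adjusted p = 6.93e-08).

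Cdkn1b encodes p27, an inhibitor that accumulates when cells leave the cycle and is controlled largely through its protein's breakdown (ENSMUSG00000003031; chromosome 6, 134870419 to 134875531 in mm9, plus strand). It stood at 107.5, 106.5 and 110.2 CPM in NSC, 182.5, 157.0 and 167.0 in Astrocyte, 196.6, 212.9 and 214.3 in Neuron, and 124.3 and 110.8 in Oligodendrocyte. Neuron libraries were highest and Oligodendrocyte libraries lay just above NSC; among the day 4 cultures this is the reverse of the order of Cdkn1a. Against NSC the log2 difference was 0.64 ± 0.068 in Astrocyte, 0.94 ± 0.068 in Neuron and 0.12 ± 0.076 in Oligodendrocyte, the last not called. Cdkn1b was lower in Oligodendrocyte than in Neuron (-0.82 ± 0.076; limma, adjusted p = 6.88e-07). Its level in Oligodendrocyte was also below that in Astrocyte (-0.52 ± 0.076; adjusted p = 7.84e-05), which in turn was below Neuron (-0.30 ± 0.068; adjusted p = 0.00174).

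Cdkn1c encodes p57, an imprinted CIP/KIP inhibitor expressed mainly from the maternal copy (ENSMUSG00000037664; chromosome 7, 150644255 to 150646955 in mm9, minus strand). The gene was at 6.31, 7.48 and 7.38 CPM in NSC, 3.57, 3.04 and 3.70 in Astrocyte, 17.90, 18.72 and 16.78 in Neuron, and 2.99 and 3.71 in Oligodendrocyte. Every Neuron library lay above NSC and every library of the other day 4 cultures below it. Its log2 difference from NSC was -0.86 ± 0.097 in Astrocyte, 1.22 ± 0.097 in Neuron and -0.89 ± 0.108 in Oligodendrocyte. Cdkn1c was lower than in Neuron by 2.08 in Astrocyte (a log2 difference of -2.08 ± 0.097; limma, adjusted p = 1.34e-09) and by 2.12 in Oligodendrocyte (-2.12 ± 0.108; adjusted p = 2.49e-09). Oligodendrocyte and Astrocyte differed by -0.03, with a 95% interval of -0.26 to 0.20 (limma, adjusted p = 0.832).

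Per kb, by exon lengths counted in the same way and with the same limit, the CIP/KIP pool changed its leading gene with the medium. Cdkn1a made up 70.8% ± 0.372 (SD, n = 3) of it in NSC and 77.6% ± 1.54 (n = 2) in Oligodendrocyte. Cdkn1b led in Astrocyte with 52.8% ± 1.45 (n = 3) and in Neuron with 64.6% ± 0.45 (n = 3). The share of Cdkn1c was 12.4% ± 0.882 (n = 3) in Neuron and 1.34% to 3.71% in the other groups. The summed level was 93.2 ± 2.28 CPM per kb in NSC, 70.2 ± 4.87 in Astrocyte, 70.7 ± 3.17 in Neuron and 123 ± 0.211 in Oligodendrocyte. The D cyclin sum differed more from NSC, but Ccnd1, for whose fall the family was chosen, made up 80.6% of it there. Nothing is therefore read from that contrast. Among the day 4 cultures the CIP/KIP sum ran from 70.2 to 123 CPM per kb and the D cyclin sum from 15.4 to 24.3.

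Cdkn2c encodes p18, an INK4 inhibitor that is also transcribed under E2F (ENSMUSG00000028551; chromosome 4, 109333481 to 109339794 in mm9, minus strand). It measured 89.64, 89.45 and 102.9 CPM in NSC, 45.77, 42.40 and 48.61 in Astrocyte, 44.97, 58.18 and 47.70 in Neuron, and 41.64 and 38.50 in Oligodendrocyte. All day 4 libraries were below NSC and close to each other. Against NSC the log2 difference was -1.03 ± 0.093, -0.90 ± 0.093 and -1.21 ± 0.104 in Astrocyte, Neuron and Oligodendrocyte. Oligodendrocyte was lower than Neuron (-0.31 ± 0.104; limma, adjusted p = 0.0173), a difference that did not pass without Oligodendrocyte replicate 2 (-0.26). Neither Astrocyte against Neuron (95% interval -0.33 to 0.07; adjusted p = 0.236) nor Oligodendrocyte against Astrocyte (-0.41 to 0.04; adjusted p = 0.164) passed in limma.

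Cdkn2d, the INK4 inhibitor p19, lay at the edge of detection (ENSMUSG00000066860; chromosome 9, 21092907 to 21095653 in mm9, minus strand). It was at 1.15, 1.73 and 1.33 CPM in NSC, 0.82, 0.62 and 0.76 in Astrocyte, 0.53, 0.75 and 0.68 in Neuron, and 0.86 and 0.90 in Oligodendrocyte. No difference among the day 4 cultures passed; the 95% intervals on the log2 scale were -0.15 to 0.29 for Astrocyte against Neuron, -0.06 to 0.43 for Oligodendrocyte against Neuron and -0.13 to 0.36 for Oligodendrocyte against Astrocyte. Its log2 difference from NSC was -0.47, -0.53 and -0.35 in Astrocyte, Neuron and Oligodendrocyte. These differences are a description, since the gene passed the filter through NSC libraries alone. Cdkn2c made up 96.4% to 97.8% of the summed INK4 level per kb by group mean.

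Of the 10 members, 6 differed between Astrocyte and Neuron, 3 higher and 3 lower, where 62.2% of all tested genes were called, 40.3% higher and 22.0% lower. Between Oligodendrocyte and Neuron 7 differed, 4 higher and 3 lower, against 67.5% of all genes, 43.9% higher and 23.6% lower. Between Oligodendrocyte and Astrocyte 5 differed, 3 higher and 2 lower, against 52.2%, 28.7% higher and 23.5% lower. These shares of the family were near those of all genes, so the family as a whole did not stand out by how many of its members differed. The members' median log2 difference was 0.02, 0.16 and 0.08 in these comparisons, beside 0.10, 0.15 and 0.04 for all tested genes. Large differences came from single genes: Cdkn1a, Cdkn1c, Ccnd1 and Ccnd2 each reached a size of 1.00 (as rounded) or more in at least 1 of the comparisons.

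**Figure D3:**
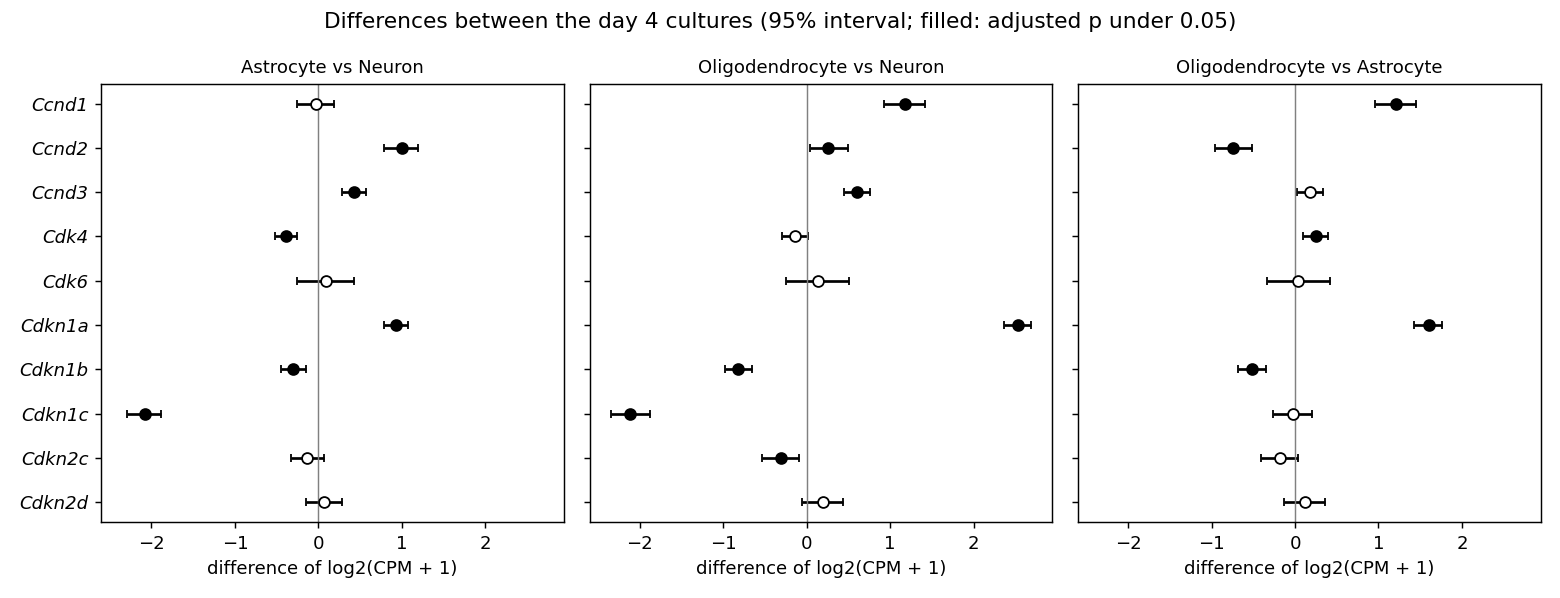
Difference of mean log2(CPM + 1) between pairs of day 4 cultures for the 10 genes, first-named group minus second, with 95% intervals; filled points passed an adjusted p of 0.05. Cdkn1a stands at 2.53 for Oligodendrocyte against Neuron, and Cdkn1c at -2.08 and -2.12 against Neuron.

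The libraries of a group lay close together for the well expressed members. The coefficient of variation was 2.5% for Ccnd1 in NSC and 16.1% in Neuron, 0.4% for Cdk4 in Oligodendrocyte, and 37.1% in Astrocyte for the barely detected Cdk6. Some members overlap a gene on the opposite strand, and whether the counting used strand is not given in the sources used here. Oraov1 shares 818 bases with Ccnd1 and ranged from 6.74 to 15.67 CPM, beside 16.77 to 49.29 CPM for Ccnd1 at day 4. Tspan31 shares 604 bases with Cdk4 (62.56 to 116.5 CPM), Bysl 353 bases with Ccnd3 (10.22 to 53.71 CPM) and 9330179D12Rik 1660 bases with Ccnd2 (0.24 to 2.42 CPM). How many reads fell in the shared bases was not tested.

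Genes whose pattern over the 11 libraries was most like that of a member were found by the root-mean-square (RMS) difference of centred log2(CPM + 1) among 10306 candidates. For Ccnd1 these were Cd93 (RMS difference 0.337), the matrix protein gene Tnc (0.387) and the proliferation marker Mki67 (0.454), where the RMS of Ccnd1 itself was 2.73. Cd93 fell from 111.4 CPM in NSC to means of 0.78, 1.08 and 1.64 in Astrocyte, Neuron and Oligodendrocyte, where the added 1 CPM limits the fall on the log2 scale. Tnc fell from 985.7 ± 45 CPM in NSC to means of 15.30, 18.63 and 22.16 in Astrocyte, Neuron and Oligodendrocyte, and Mki67 from 845.0 ± 58.8 to 21.05, 14.96 and 27.66 (SD, n = 3). For Ccnd2 they were Spp1 (0.150), Smtn (0.211) and Igfbp4 (0.223), against an own RMS of 1.38. All 3 were much lower at day 4 and, as for Ccnd2, had their highest day 4 mean in Astrocyte. Spp1 went from 10.58 CPM in NSC to means of 0.97, 0.04 and 0.38 in Astrocyte, Neuron and Oligodendrocyte. At such values the added 1 CPM limits the fall on the log2 scale, so its likeness does not hold for ratios of CPM. Igfbp4, which encodes a binding protein of insulin-like growth factors, was at 50.12 CPM in NSC and 9.40, 3.68 and 6.81 at day 4.

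Nearest to Cdkn1a were Shisa6 (0.117), Tnfrsf10b (0.168) and Ano3 (0.220), against an own RMS of 0.95. Tnfrsf10b encodes a TRAIL death receptor. It had means of 12.12, 6.46, 3.02 and 20.77 CPM in NSC, Astrocyte, Neuron and Oligodendrocyte, the same order as Cdkn1a. Cdkn1c was most like Mfng (0.109), Eps8 (0.240) and 1500012F01Rik (0.261), against an own RMS of 0.87. Mfng encodes Manic fringe, which modifies Notch receptors, and had means of 6.62, 2.69, 14.16 and 2.98 CPM. These likenesses are descriptions of 11 libraries in 4 groups.

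The partners of the family in the retinoblastoma-E2F step formed a list of 15 genes. In both Astrocyte and Neuron 13 were called lower than NSC and 2 higher, and in Oligodendrocyte 12 were lower and 2 higher. Of all tested genes, 35.6%, 39.6% and 32.2% were called lower in Astrocyte, Neuron and Oligodendrocyte, and 48.0%, 43.5% and 48.1% higher. The list's median log2 difference was -1.96, -1.88 and -2.13 in Astrocyte, Neuron and Oligodendrocyte, beside 0.15, 0.06 and 0.19 for all genes. Cyclin A2, the S phase cyclin encoded by Ccna2, went from 328.5 ± 7.83 CPM in NSC to 9.30 ± 0.913, 6.03 ± 0.526 and 12.44 ± 0.0283. Ccne2, one of the cyclin E genes, went from 60.52 ± 4.89 to 2.15 ± 0.382, 1.76 ± 0.28 and 5.54 ± 0.502, and the activator E2f2 from 21.39 ± 0.479 to 1.15 ± 0.102, 0.39 ± 0.208 and 2.37 ± 0.728. The 2 genes called higher were Rb1, the retinoblastoma gene (64.73 ± 5.07 CPM in NSC and 122.5 ± 6.2, 112.7 ± 4.12 and 115.7 ± 4.71 at day 4), and its relative Rbl2 (38.96 ± 0.788 and 86.42 ± 7.97, 88.53 ± 4.07 and 69.58 ± 4.02). The third pocket protein gene, Rbl1, was lower, with 60.47 ± 4.72 CPM in NSC and 8.92 ± 0.74, 10.24 ± 1.24 and 8.66 ± 0.856 at day 4 (all SD, n = 3, 3, 3 and 2).

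Some of these genes also separated the day 4 cultures. Between Oligodendrocyte and Neuron 9 of the 15 were called higher and 2, Cdk2 and Rbl2, lower (8 to 10 and 2 to 4 over the alternatives tried). Of all tested genes, 43.9% were called higher and 23.6% lower, 67.5% in either direction. The number of listed genes that differed was thus near the share of all genes. The list's median was 0.37 beside 0.15 for all genes. Between Astrocyte and Neuron 7 of the 15 were called higher and 0 lower (5 to 7 and 0 to 2 over the alternatives). Of all genes, 40.3% were higher and 22.0% lower there. Between Oligodendrocyte and Astrocyte 6 were higher and 2 lower (5 to 6 and 0 to 3), beside 28.7% and 23.5% of all genes. Ccne1 was higher in Oligodendrocyte than in Neuron by 1.34 ± 0.102 (limma, adjusted p = 1.04e-07), E2f1 by 1.48 ± 0.117 (adjusted p = 1.43e-07) and Ccne2 by 1.25 ± 0.12 (adjusted p = 9.81e-07). Proliferation markers had the like direction without reaching NSC: Mcm2, a subunit of the replicative helicase, stood at 177.2 ± 5.65 CPM in NSC, 13.39 ± 0.495 in Astrocyte, 6.64 ± 0.645 in Neuron and 25.54 ± 0.0141 in Oligodendrocyte. Of the 8 markers, 5 were higher in Oligodendrocyte than in Neuron, where 43.9% of all genes were, and none was lower (median 0.79 beside 0.15 for all genes). Astrocyte too lay above Neuron, with 7 markers higher (4 to 7 over the alternatives) and 0 lower. Between Oligodendrocyte and Astrocyte the markers divided, with Mcm2 and Mcm5 higher and Cdk1 and Ccnb1 lower. All 8 were called lower than NSC in every day 4 culture, beside 35.6%, 39.6% and 32.2% of all genes in Astrocyte, Neuron and Oligodendrocyte, with medians of -4.37, -5.16 and -4.33.

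Words of the E2F site (TTTCGCGC, TTTGGCGC or TTTCCCGC, either strand) were present in 1.48% of all windows upstream of a start. None of the 7 members with a window in the RefSeq table held one. Of the 10 E2F-step genes with a window, 4 did: Cdc25a, Cdk2, Rbl1 and Tfdp1.

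The remaining CDK inhibitors moved apart from one another. Cdkn2b (p15), an INK4 gene, was at 6.53 ± 0.364 CPM in NSC and at 26.79 ± 1.67, 21.32 ± 3.42 and 14.29 ± 0.53 in Astrocyte, Neuron and Oligodendrocyte (SD, n = 3, 3, 3 and 2), and was called higher than NSC in each. Cdkn2b was lower in Oligodendrocyte than in Neuron (-0.54 ± 0.11; limma, adjusted p = 0.000767), and its difference from Astrocyte was -0.86 ± 0.11 (adjusted p = 2.35e-05). Cdkn2a was lower at day 4, from 8.86 ± 0.713 to 4.77 ± 0.698, 3.95 ± 0.698 and 4.06 ± 0.24 CPM. Cdkn3, a phosphatase that acts on CDK2, dropped from 13.41 ± 2.31 CPM to under 0.4 CPM in every day 4 library.

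Upstream of the family, 13 of 14 listed genes were measured. Skp2 and Cks1b, parts of the ligase that marks p27 for breakdown, were lower in every day 4 culture: Skp2 had 62.32 ± 1.13 CPM in NSC and 12.39 ± 1.04, 11.86 ± 0.423 and 10.51 ± 0.735 after, and Cks1b 65.08 ± 4.52 and 8.15 ± 1.06, 6.84 ± 0.739 and 5.88 ± 0.099. FoxO genes, whose products can activate Cdkn1b, were called higher than NSC in every culture. So were 48.0%, 43.5% and 48.1% of all genes in Astrocyte, Neuron and Oligodendrocyte. Foxo1 went from 12.52 ± 0.891 to 48.52 ± 2.86, 29.51 ± 1.43 and 62.11 ± 1.62 CPM, and Foxo3 from 58.46 ± 2.58 to 130.4 ± 7.17, 130.8 ± 6.85 and 191.0 ± 6.32. Foxo4, at 24.71 ± 1.39 CPM in NSC, rose little in Oligodendrocyte, by 0.23 on the log2 scale beside a median of 0.19 for all genes. Foxo4 was higher in Neuron than in Oligodendrocyte, as Cdkn1b was, with 71.78 ± 2.42 against 29.20 ± 2.47 CPM (a log2 difference of -1.27 ± 0.077, Oligodendrocyte minus Neuron; limma, adjusted p = 1.25e-08). Foxo1 and Foxo3 had the other order, higher in Oligodendrocyte by 1.05 ± 0.078 (adjusted p = 9e-08) and 0.54 ± 0.07 (adjusted p = 1.45e-05). The CDK-activating kinase genes changed less: Cdk7 was at 40.98 ± 0.997 CPM in NSC and 49.67 ± 1.48, 57.94 ± 3.83 and 60.00 ± 0.311 at day 4, and Ccnh was not called in any comparison.

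Cdkn1a's neighbours in the p53 pathway were followed with a list of 11 genes, p53 itself (Trp53) and 10 of its targets. The list was chosen with earlier results of these data known, so its counts are a description. Every one of the 11 was called higher in Oligodendrocyte than in Neuron, where 43.9% of all genes were. The median was 1.00 beside 0.15 for all genes, and the count held under each alternative processing tried. Against Astrocyte, 10 of 11 were higher (9 to 10 over the alternatives), where 28.7% of all genes were, with a median of 0.77 beside 0.04. Between Astrocyte and Neuron, 7 were higher and none lower (median 0.45 beside 0.10), or 7 to 9 higher and 0 to 1 lower over the alternatives. Of all genes, 40.3% were higher and 22.0% lower there. Summed over the list the level was 1316 to 1371 CPM in NSC, 941 to 1065 in Astrocyte, 738 to 765 in Neuron and 1912 to 1958 in Oligodendrocyte. These sums had the same order of groups as Cdkn1a, but Ccng1 weighed most in them. Its means were 375.8, 324.6, 231.2 and 858.9 CPM in NSC, Astrocyte, Neuron and Oligodendrocyte. Not every gene kept that order. Trp53, Zmat3 and Eda2r had their highest mean in NSC, and Bbc3 its lowest.

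Ccng1, which encodes cyclin G1, was at 858.9 ± 35.1 CPM in Oligodendrocyte and 231.2 ± 10.6 in Neuron (SD, n = 2 and 3), a log2 difference of 1.89 ± 0.07 (limma, adjusted p = 1.38e-10). Phlda3, an inhibitor of AKT, differed by 2.03 ± 0.085 (adjusted p = 3.93e-10), and Aen, an exonuclease gene of apoptosis, by 1.85 ± 0.061 (adjusted p = 6.55e-11). Mdm2, whose product marks p53 for breakdown, differed by 0.94 ± 0.088 (adjusted p = 7.51e-07). Trp53 differed least of the list, by 0.45 ± 0.081 (limma, adjusted p = 0.000263), and was at 76.19 ± 2.66 CPM in NSC, above all day 4 cultures. Against NSC, 6 of the list were called higher and 2 lower in Oligodendrocyte, beside 48.1% and 32.2% of all genes. The 6 called higher were thus near the share of all genes. In Astrocyte 9 of 11 were lower (7 to 10 over the alternatives) and in Neuron 10 of 11, beside 35.6% and 39.6% of all genes. Bbc3 was the 1 gene called higher in both Astrocyte and Neuron. Of the 9 genes of the list with a window in the RefSeq table, 5 held a p53 decamer: Aen, Bax, Ccng1, Mdm2 and Trp53. By window, 6.99% of all held one, but a gene can have more than 1 window, so the shares are not alike. Of the 7 members with a window, Cdkn1a and Cdkn2d held one.

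**Figure D4:**
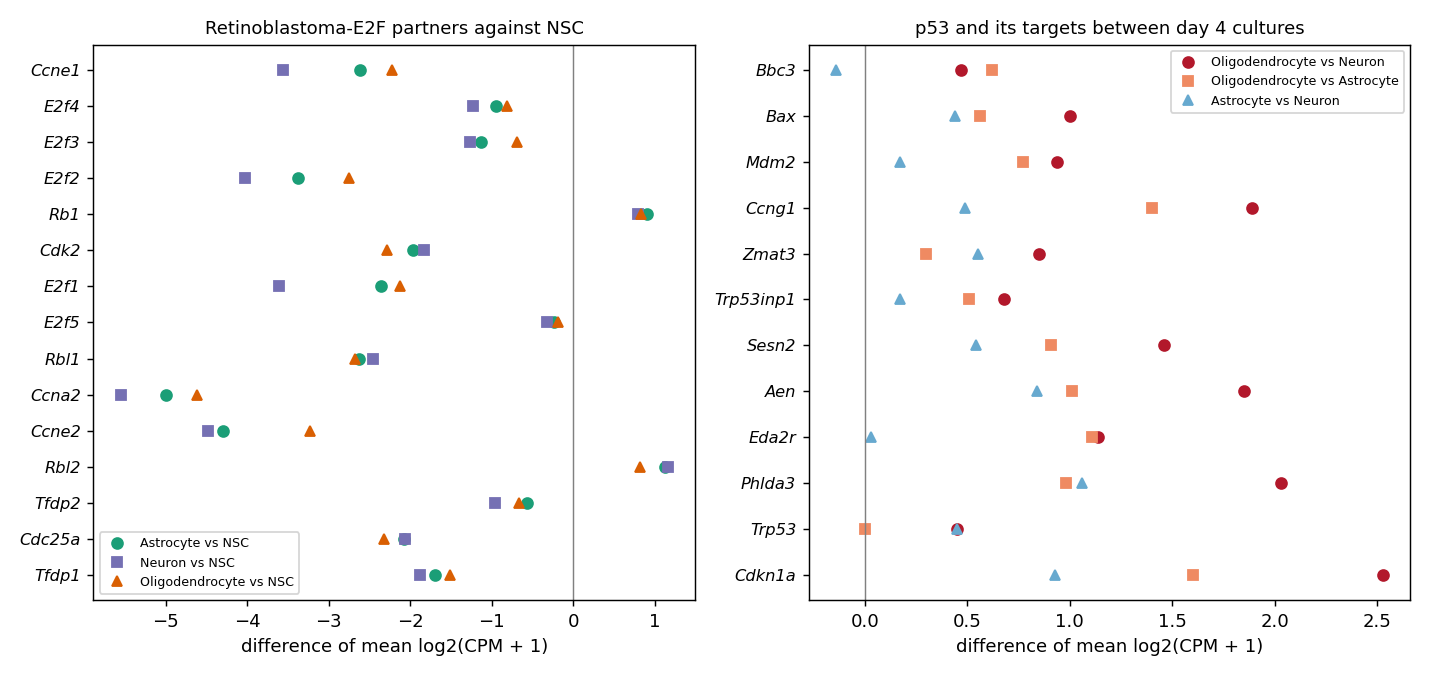
Left, difference of mean log2(CPM + 1) from NSC for 15 genes of the retinoblastoma-E2F step in the 3 day 4 cultures; right, differences between day 4 cultures for the 11 genes of the p53 list and for Cdkn1a. All on the left but Rb1 and Rbl2 lie below 0, and all 11 on the right lie above 0 for Oligodendrocyte against Neuron.

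In bulk samples such as these, fewer cells that express a gene and less RNA per cell cannot be told apart. CPM are shares of a library, and scaling the libraries to a common median of ratios moved the median of all genes from 0.15 to -0.01 in Astrocyte against NSC, from 0.19 to 0.00 in Oligodendrocyte against NSC and from 0.15 to 0.03 in Oligodendrocyte against Neuron. Under that scaling the difference between Oligodendrocyte and NSC was -0.32 for Ccnd3, which then passed, and -0.10 for Cdkn1b, which changed sign and was not called. The directions of the differences of Ccnd1, Ccnd2, Cdk4, Cdkn1a, Cdkn1c and Cdkn2c from NSC did not change under any alternative tried.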

How the data were processed

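The authors deposited CPM values with 2 decimals for 37991 genes in 11 libraries, with mm9 coordinates, per the file headers. The submitters' processing notes name bcl2fastq 1.8.4, TopHat2 2.0.8, HTSeq 0.6.1 and build NCBIM37. Libraries came from a stranded poly(A) kit, per the labels' protocols. Read depth is unknown, and its effect enters only through the spread between libraries. All columns of values were matched to a sample (0 left over).

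Values were put on the log2(CPM + 1) scale. Genes reaching 1 CPM in 2 or more libraries (13342) were fitted with limma 3.58.1 (R 4.3.3; 1 mean per group, all libraries, trended prior variance; residual degrees of freedom 7, prior 5.96), a procedure tested on simulated data. Two-sided p-values were adjusted (Benjamini-Hochberg) over all tested genes of a comparison. Exon lengths came from GENCODE M21 (GRCm38), as the union of the exons of all transcripts of a gene, with Cdkn2d matched by symbol. Upstream windows came from RefSeq (GRCm38.p6), where 7 of the 10 members matched; Ccnd1, Ccnd2 and Cdkn1c are named only.

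Members and gene lists were chosen with earlier results of these data known. The genes named are the 10 members, genes of these lists, and for Ccnd1, Ccnd2, Cdkn1a and Cdkn1c the 3 genes most alike, among those averaging 10 CPM or more somewhere. Alternatives were pseudocounts of 0.1 and 5, no filter, 2 other scalings, a replicate block, fits of the compared groups only and leaving out each library.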

Additional observations from a re-analysis of the deposited data

Results flagged for a closer look

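Cdkn1a went in opposite directions from NSC in different media, higher in every Oligodendrocyte library and lower in every library of the other day 4 cultures. The test of the difference gave 2.53 on the log2 scale for Oligodendrocyte minus Neuron (limma, adjusted p = 2.45e-11) and 1.60 for Oligodendrocyte minus Astrocyte (adjusted p = 2.73e-09).

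Cdkn1c did so with another medium set apart: every Neuron library was above NSC and every Astrocyte and Oligodendrocyte library below it. The difference was -2.08 for Astrocyte minus Neuron (limma, adjusted p = 1.34e-09) and -2.12 for Oligodendrocyte minus Neuron (adjusted p = 2.49e-09).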

How the results depend on the processing

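The counts of members called kept within 1.5 times under every alternative: 10 in Astrocyte against NSC, 10 in Neuron against NSC, 7 to 9 in Oligodendrocyte against NSC, 6 in Astrocyte against Neuron, 5 to 7 in Oligodendrocyte against Neuron and 4 to 6 in Oligodendrocyte against Astrocyte. Of the members' log2 differences recomputed, 711 kept direction and side of the threshold, 12 lost the call, 6 gained it and 15 changed sign; all 15 were uncalled, and the cause was not tested. After scaling by median of ratios Cdkn1b was -0.10 in Oligodendrocyte against NSC. After quantile normalization Astrocyte minus Neuron was -0.07 for Cdk6 and -0.11 for Cdkn2d, and Oligodendrocyte minus Neuron was -0.0041 for Cdk6. Without single libraries, Ccnd1 ranged from -0.16 to 0.05 in Astrocyte against Neuron and Cdk6 from -0.03 to 0.18. Cdk6 ranged from -0.0073 to 0.26 in Oligodendrocyte against Neuron and from -0.10 to 0.17 against Astrocyte, where Cdkn1c ranged from -0.15 to 0.09. Without 1 Oligodendrocyte library the lone other is assumed to vary like the other groups.

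Libraries share only a replicate number: same-numbered libraries had deviations correlated from -0.505 to 0.415. With a replicate block, 10, 10, 8, 6, 7 and 6 members were called in the 6 comparisons as ordered above; Cdk6 in Oligodendrocyte against Astrocyte was -0.03, and Ccnd3 passed there (0.20), as it did in a fit of those groups only (0.18). Depth is unknown, so the precision of values near 1 CPM could not be computed.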
